A study of Homo sapiens with 4 samples.

Results

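The 9 genes described here serve the presentation of peptides on major histocompatibility complex (MHC) class I. They are HLA-B, HLA-C and HLA-E (heavy chains), B2M (the light chain), TAP1 and TAP2 (the peptide transporter), PSMB8 and PSMB9 (catalytic subunits of the immunoproteasome) and NLRC5 (a transactivator of class I genes). They were chosen by gene name from the 50868 genes of the count files, and 9 of 9 had enough counts to be tested. RNA was sequenced from 4 libraries of A549, a human lung adenocarcinoma line. Of these, 2 were control libraries (A549-CON, called EV by the study) and 2 were from A549-USP12 cells, in which the deubiquitinase USP12 was overexpressed from a pLVX vector. No further treatment, and no exposure to interferon, is given for either group. Whether each group was a pool of transduced cells or a clone is not given in the sources used here, and nothing says that the replicates were separate cultures, so the p-values measure only the spread between these libraries.

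Class I molecules display fragments of the cell's own proteins to CD8+ T cells. The proteasome cuts proteins, TAP1 and TAP2 carry the peptides into the endoplasmic reticulum, the loading complex places them on a heavy chain bound to B2M, and the complex moves to the surface, where loss of any of these parts can hide a tumour cell from T cells. Most genes of the pathway are inducible by interferons through factors such as IRF1 and NLRC5, and several also respond to NF-κB.

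The libraries held between 14280081 and 16305356 counts. CPM are counts divided by the library's total, scaled by edgeR's TMM factor, in units of 1e6, and 3 counts, taken as the floor, were between 0.166 and 0.227 CPM. USP12 had 15.2 and 34.4 CPM in control replicates 1 and 2, and 1745 and 2235 CPM in USP12 replicates 1 and 2, so the labels hold for the overexpressed gene. The epithelial markers EPCAM, KRT8 and KRT18 were present in all libraries. CD3E, a marker of T cells, had 0 counts throughout, and PTPRC had at most 0.0720 CPM. The control libraries stand apart from each other: across all tested genes the SD of their log2 ratio was 1.32, against 0.62 for the USP12 pair, and the heading of control replicate 1's counts starts with a different date-like number from those of the other 3. That number cannot be told apart from the library that carries it. Fold changes of the 9 genes are also given against either control library alone. The value against control replicate 2 alone is also the value among the 3 libraries that share a number.

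The promoters of 4 genes are shown, those of a heavy chain pair (HLA-B and HLA-C), the light chain and a transporter subunit. The groups did not overlap for any of them, nor for PSMB8 and PSMB9, whose windows were searched but are not shown. For TAP2, whose window was also searched and is not shown, the groups overlapped. RefSeq start sites (GRCh38.p14) were matched by symbol for 7 of the 9 genes, and 9 windows of 250 bases before a start site were searched on both strands. HLA-E and NLRC5 had no window. Capitals mark an IRF core (AANNGAAA, recognised by interferon regulatory factors), a GAS motif (TTCNNNGAA, the interferon-γ-activated site), TGACG (the core of the X2 box to which the NLRC5 enhanceosome binds), CCAAT (the Y box core, for NF-Y) or a κB motif, of which neighbouring matches can overlap.
HLA-B, chr6:31357180-31357429, minus strand: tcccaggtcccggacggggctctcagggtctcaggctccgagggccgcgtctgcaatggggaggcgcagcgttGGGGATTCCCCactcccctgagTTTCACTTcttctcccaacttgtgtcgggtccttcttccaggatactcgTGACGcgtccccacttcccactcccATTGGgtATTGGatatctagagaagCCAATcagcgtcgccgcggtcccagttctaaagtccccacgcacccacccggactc
HLA-C, chr6:31272093-31272342, minus strand: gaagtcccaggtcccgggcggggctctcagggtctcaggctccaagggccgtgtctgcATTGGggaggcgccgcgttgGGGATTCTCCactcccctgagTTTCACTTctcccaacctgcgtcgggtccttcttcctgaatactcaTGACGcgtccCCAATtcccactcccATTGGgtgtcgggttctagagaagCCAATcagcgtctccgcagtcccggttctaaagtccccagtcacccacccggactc
B2M, chr15:44711267-44711516, plus strand: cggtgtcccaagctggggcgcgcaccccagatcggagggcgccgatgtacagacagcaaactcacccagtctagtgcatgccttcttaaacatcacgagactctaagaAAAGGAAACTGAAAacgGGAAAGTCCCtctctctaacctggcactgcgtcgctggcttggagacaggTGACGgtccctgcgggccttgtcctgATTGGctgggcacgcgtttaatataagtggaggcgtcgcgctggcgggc
TAP1, chr6:32853705-32853954, minus strand: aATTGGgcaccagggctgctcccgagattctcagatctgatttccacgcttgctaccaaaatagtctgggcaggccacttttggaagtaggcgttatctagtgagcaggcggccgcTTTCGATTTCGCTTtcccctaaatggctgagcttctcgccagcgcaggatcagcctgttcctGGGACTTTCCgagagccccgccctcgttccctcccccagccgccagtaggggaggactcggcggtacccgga
HLA-B, HLA-C and B2M each held at least 1 match to the IRF core, to the X2 core, to CCAAT and to κB. The 2 κB matches of HLA-B overlap, starting 177 and 176 bases before the start site, and HLA-C has 1, at 172 bases. B2M and TAP1 each held 2 IRF cores that overlap, at 142 and 136 bases in B2M and at 134 and 128 bases in TAP1, which also had a κB match at 72 bases. Of the 9 windows, 5 held an IRF core, 2 a GAS motif, 6 an X2 core, 5 a CCAAT box and 4 a κB match. The window of TAP2 held IRF cores at 62 and 56 bases and an X2 core at 35 bases. The windows of PSMB8 and PSMB9 held neither an IRF core nor a κB match. Among all 35116 windows of this length, the shares were 20.3% for the IRF core, 6.57% for GAS, 21.2% for the X2 core, 32% for the CCAAT box and 9.96% for κB. These are matches of letters in the reference genome, not in the alleles of A549, and binding was not measured. TAP1 and PSMB9 are transcribed away from each other, from start sites 488 bases apart, and their windows share 13 bases. The IRF cores and the κB match of TAP1 lie between these start sites, outside the window of PSMB9.

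All 9 genes had a lower estimate in USP12 cells. Their log2 fold changes had a median of -1.09, beside -0.06 over the 15222 genes tested. By edgeR's quasi-likelihood test, 0 of the 9 had an adjusted p under 0.05, as had 0% of all genes, and 4 had an unadjusted p under 0.05, as had 1155 of all genes. In the same test the overexpressed USP12 had a log2 fold change of 6.32 and an adjusted p of 0.0975, the smallest of all genes. The study's own criterion for lower expression, an unadjusted p of 0.05 or less together with a log2 difference of at most -1, was met by 4 of 9 (HLA-B, HLA-C, B2M and PSMB9), beside 4.41% of all genes. It was met by 1 of 9 with USP12 replicate 1 left out, beside 1.86% of all genes, and by 1 of 9 with USP12 replicate 2 left out, beside 2.09%. In 7 of 9, each USP12 library was below each control library, beside 17% of all genes, and in 0 of 9 they were above, beside 19.5%. HLA-B and HLA-C were called lower by the DESeq2 Wald test (1.79% of all genes) and by edgeR's exact test (1.64%), in which the other 7 were not called. Against control replicate 1 alone 6 were called by the quasi-likelihood test, beside 16.3% of all genes, and against control replicate 2 alone 5, beside 5.74%, of which HLA-B and HLA-C were called in both.

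**Figure D1:**
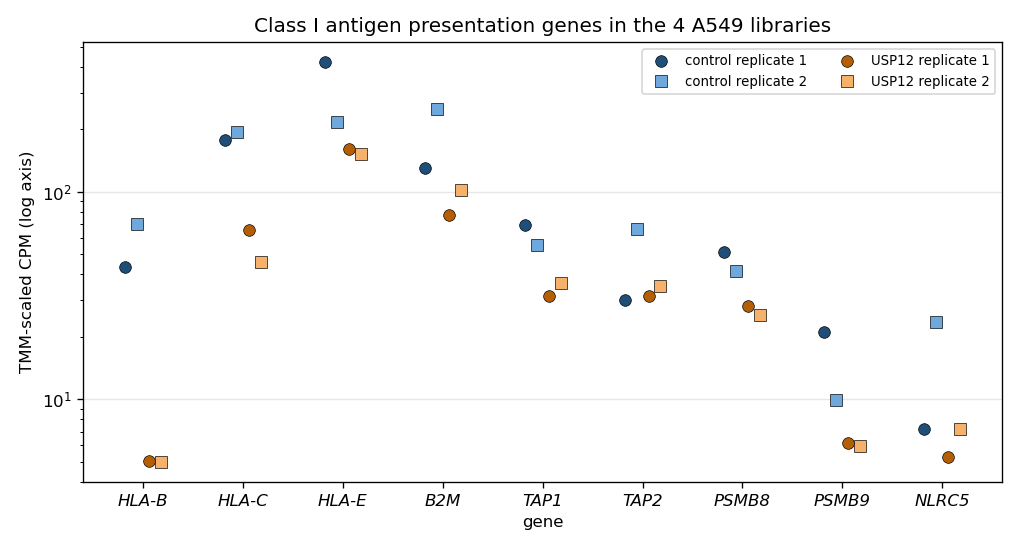
Level of each of the 9 genes in TMM-scaled CPM on a log axis, 1 point for each library (blue shades, control, and orange shades, USP12, with circles for replicate 1 and squares for replicate 2). HLA-B has the widest gap, from 43.6 or more in the control libraries to 5.04 or less in the USP12 libraries, while in TAP2 control replicate 1 lies just below the USP12 libraries and in NLRC5 between them.

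The heavy chains were led by HLA-B (ENSG00000234745, chromosome 6, 31353872 to 31367067, minus strand), a classical class I molecule that presents peptides to CD8+ T cells. It had 576 and 1259 counts in control replicates 1 and 2 and 70 and 72 in USP12 replicates 1 and 2, or 43.6, 69.8, 5.04 and 4.99 CPM. Both USP12 libraries were far below both control libraries and close to each other. The fitted log2 fold change was -3.50 ± 0.48 (± an approximate standard error, SE, adjusted p = 0.163, edgeR quasi-likelihood), which is 11.3-fold lower. It was -3.09 against control replicate 1 alone and -3.80 against control replicate 2 alone. With the DESeq2 Wald test the adjusted p was 1.17e-08, and with edgeR's exact test it was 1.22e-06.

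HLA-C (ENSG00000204525, chromosome 6, 31268749 to 31272130, minus strand), a classical molecule that is also a ligand of killer immunoglobulin-like receptors, had 178 and 193 CPM in control, against 65.2 and 45.7 CPM in USP12 cells. The groups did not overlap, and the control libraries were nearly level. Its fitted log2 fold change was -1.74 ± 0.38 (SE, adjusted p = 0.274, quasi-likelihood), or 3.35-fold lower. The estimate was -1.65 against control replicate 1 alone and -1.80 against control replicate 2 alone. The adjusted p was 0.00933 with DESeq2 and 0.00955 with edgeR's exact test.

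HLA-E (ENSG00000204592, chromosome 6, 30489509 to 30494194, plus strand) presents leader peptides of other class I chains to the NKG2A receptor of natural killer cells. Its levels were 420 and 217 CPM in control, against 161 and 152 CPM in USP12 cells. The USP12 libraries were below both, but control replicate 2 lay nearer to them than to control replicate 1. The fitted log2 fold change was -1.02 ± 0.42 (SE, adjusted p = 0.663, quasi-likelihood), going from -1.39 against control replicate 1 alone to -0.47 against control replicate 2 alone.

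HLA-B was also lower relative to HLA-C in USP12 cells. The ratio of HLA-B to HLA-C in CPM per kilobase was 0.246 and 0.362 in control, against 0.0776 and 0.110 in USP12 cells, and the groups did not overlap. With 2 libraries against 2, an exact two-sided permutation test cannot give a p below 0.333, and none was run on this ratio. Fragments of these near-identical, highly polymorphic genes can be discarded or misplaced when only unique alignments are counted, so differences between the heavy chains carry that uncertainty.

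Other genes of the class I heavy chain family had estimates on both sides of 0. HLA-F, a nonclassical chain, had 9.38 and 13.9 CPM in control, against 0.720 and 0.900 CPM in USP12 cells, a log2 difference of -3.83 (SE 0.60, adjusted p = 0.182, quasi-likelihood), close in size to that of HLA-B. HFE, which acts in iron sensing rather than peptide display, had a log2 fold change of -0.81, and MR1, which presents vitamin metabolites, one of 0.95 with overlapping groups. HLA-G, expressed mainly in placenta, had 0 counts in all libraries.

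The light chain B2M (ENSG00000166710, chromosome 15, 44711358 to 44718851, plus strand), without which no classical heavy chain stays at the surface, had 131 and 252 CPM in control, against 77.3 and 103 CPM in USP12 cells. The groups did not overlap. The fitted log2 fold change was -1.09 ± 0.45 (SE, unadjusted p = 0.0498, adjusted p = 0.657, edgeR quasi-likelihood). Here the larger difference was against control replicate 2 alone, at -1.48, and the smaller against control replicate 1 alone, at -0.51, the opposite order to HLA-E.

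Of the transporter, TAP1 (ENSG00000168394, chromosome 6, 32845209 to 32853816, minus strand) had 69.2 and 55.4 CPM in control, against 31.3 and 36.2 CPM in USP12 cells. The groups did not overlap, and the fitted log2 fold change was -0.89 ± 0.38 (SE, adjusted p = 0.688, quasi-likelihood). It was -1.01 and -0.71 against control replicates 1 and 2 alone. TAP2 (ENSG00000204267, chromosome 6, 32821833 to 32838739, minus strand), its partner in the heterodimer, had 30.1 and 65.9 CPM in control, against 31.6 and 35.0 CPM in USP12 cells. Control replicate 1 was below both USP12 libraries, so the estimate of -0.53 (SE 0.49, adjusted p = 0.926) rests on control replicate 2. It was 0.17 against control replicate 1 alone and -0.98 against control replicate 2 alone. The ratio of TAP1 to TAP2 in CPM per kilobase was 4.83 in control replicate 1 and between 1.77 and 2.17 in the other libraries.

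PSMB8 (ENSG00000204264, chromosome 6, 32840717 to 32844679, minus strand), which replaces PSMB5 in the immunoproteasome, had 51.2 and 41.6 CPM in control, against 28.3 and 25.6 CPM in USP12 cells. The fitted log2 fold change was -0.78 ± 0.39 (SE, adjusted p = 0.781, edgeR quasi-likelihood), with -0.90 and -0.63 against control replicates 1 and 2 alone. PSMB9 (ENSG00000240065, chromosome 6, 32844136 to 32859851, plus strand), which replaces PSMB6, had 279 and 179 counts in control, against 86 in each USP12 library, or 21.1, 9.92, 6.19 and 5.96 CPM. Its fitted log2 fold change was -1.35 ± 0.55 (SE, unadjusted p = 0.0489, adjusted p = 0.654), with -1.77 and -0.71 against control replicates 1 and 2 alone. In both genes the USP12 libraries were below both control libraries. TAP2, PSMB8, TAP1 and PSMB9 lie within 38.0 kb of the MHC, from 32821833 to 32859851. PSMB9 overlaps TAP1, PSMB8 and PSMB8-AS1 in the annotation, and no source says whether counting used the strand, so reads from these genes may not be fully separated. PSMB8-AS1 itself had between 5 and 42 counts a library.

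With both control libraries, the constitutive catalytic subunits had estimates nearer to 0. PSMB5 had a log2 fold change of -0.16, PSMB6 of -0.39 and PSMB7 of -0.16, and in all 3 the groups overlapped. Their direction turned with the control library. Against control replicates 1 and 2 alone PSMB5 had -0.56 and 0.45, PSMB6 -0.84 and 0.31, and PSMB7 -0.46 and 0.26. Set against its constitutive counterpart, each inducible subunit was lower in both USP12 libraries than in both control libraries. The ratio of PSMB8 to PSMB5 in CPM per kilobase was 0.332 and 0.556 in control, against 0.269 and 0.256 in USP12 cells. For PSMB9 and PSMB6 it was 0.136 and 0.145, then 0.0691 and 0.0740. For PSMB10 and PSMB7 it was 0.0945 and 0.111, then 0.0637 and 0.0670. The ratio of PSMB9 to PSMB6 was nearly the same in the 2 control libraries, although PSMB9 itself differed between them by 1.09 on the log2 scale. No test was run on the ratios.

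**Figure D2:**
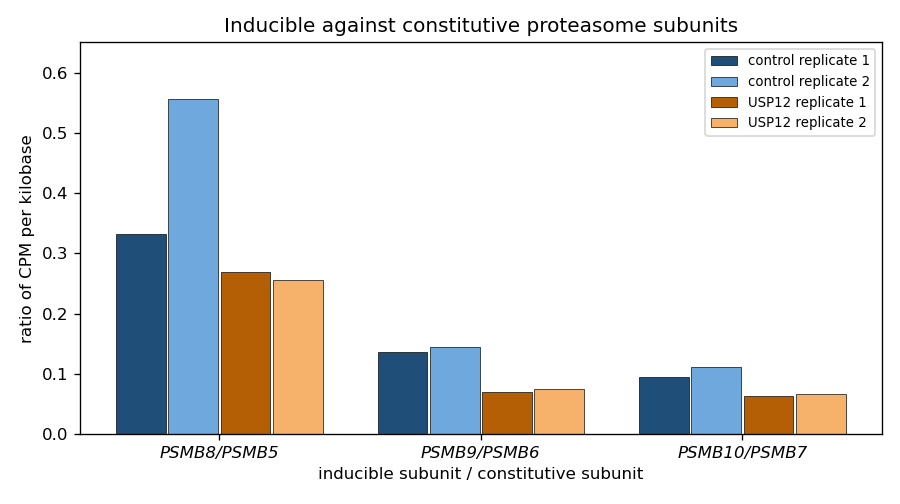
Ratio of each inducible proteasome subunit to the constitutive subunit it replaces, in CPM per kilobase of transcript, for each library (bars start at 0). All 3 ratios are lower in the USP12 libraries, with that of PSMB9 to PSMB6 at 0.136 and 0.145 in control and 0.0691 and 0.0740 in USP12 cells.

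PSMB10, the third inducible subunit, had a log2 fold change of -0.79, and the proteasome activator genes PSME1 and PSME2 had -0.64 and -0.23. In these 3 genes each USP12 library was below each control library, and none had an unadjusted p under 0.05. Peptide loading genes had a median of -0.24. TAPBP (tapasin) had a log2 fold change of -0.24, TAPBPL -0.59, CALR -0.01, CANX -0.06 and PDIA3 -0.25, with 0 of 5 at an unadjusted p under 0.05. CALR had -0.33 and 0.45 and CANX 0.54 and -0.47 against control replicates 1 and 2 alone. The trimming peptidases ERAP1 and ERAP2 had -0.57 and -0.61, each with an unadjusted p above 0.05. ERAP1, whose groups overlapped, had -0.01 and -0.95 against control replicates 1 and 2 alone, and ERAP2 had -0.26 and -0.86.

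NLRC5 (ENSG00000140853, chromosome 16, 56989485 to 57083531, plus strand), which acts on class I promoters through the X and Y boxes, had 95 and 427 counts in control replicates 1 and 2 and 73 and 104 in the USP12 libraries. In CPM these were 7.19, 23.7, 5.25 and 7.20, and control replicate 1 lay between the USP12 libraries. The fitted log2 fold change was -1.31 ± 0.68 (SE, adjusted p = 0.795, edgeR quasi-likelihood). It rests on control replicate 2, being -0.18 against control replicate 1 alone and -1.92 against control replicate 2 alone. HLA-B had 43.6 and 69.8 CPM in control replicates 1 and 2 and 5.04 and 4.99 CPM in USP12 replicates 1 and 2. The part of NLRC5 in these values was not tested.

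With both control libraries, the partners of NLRC5 had estimates near 0 or above it. RFX5 had 31.3 and 35.5 CPM in control, against 59.0 and 63.0 CPM in USP12 cells (log2 fold change 0.87 ± 0.37, SE, adjusted p = 0.683, quasi-likelihood). RFXAP had a log2 fold change of 0.08, RFXANK -0.11, NFYA 0.38, NFYB 0.03, NFYC 0.13 and CREB1 0.17, each with an unadjusted p above 0.05. RFXAP had 0.72 and -0.33 and RFXANK -0.61 and 0.73 against control replicates 1 and 2 alone. CIITA, the transactivator of class II genes, had 0 counts in all 4 libraries.

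**Figure D3:**
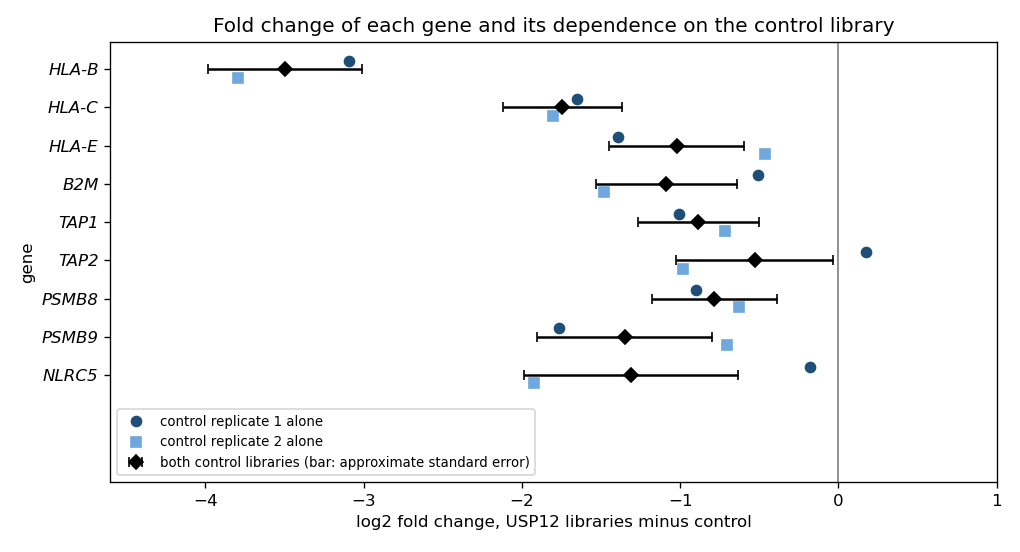
Log2 fold change of USP12 against control libraries for each gene, from both control libraries (black, with approximate standard errors), control replicate 1 alone (dark blue) and control replicate 2 alone (light blue). HLA-B lies at -3.09 and -3.80 and HLA-C at -1.65 and -1.80 with either control library, while NLRC5 goes from -0.18 to -1.92 and TAP2 from 0.17 to -0.98.

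Per kilobase of transcript, B2M was the most abundant of the 9 by the group mean, at 138 and 267 CPM per kilobase in control, against 82.0 and 109 in USP12 cells. HLA-E, at 165 and 85.0 in control and 63.3 and 59.6 in USP12 cells, and HLA-C, at 116 and 125 and then 42.3 and 29.6, came next. In the control libraries the range of HLA-E overlapped those of both B2M and HLA-C, which did not overlap each other, and in the USP12 libraries all 3 ranges were apart. HLA-B ranked 5 of 9 in control and 8 of 9 in USP12 cells, going from 28.4 and 45.4 CPM per kilobase in control, where its range overlapped that of PSMB8 (37.0 to 45.5), to 3.28 and 3.25 in USP12 cells, below TAP2 (5.60 and 6.20). NLRC5 was the lowest in both groups, at 1.06 and 3.49 and then 0.775 and 1.06.

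The 2 control libraries ordered the genes differently. HLA-B, HLA-C, B2M, TAP2 and NLRC5 were higher in control replicate 2, by between 0.12 and 1.72 on the log2 scale, and HLA-E, TAP1, PSMB8 and PSMB9 were higher in control replicate 1, by up to 1.09. The median difference over the 9 was 0.12. Interferon-stimulated genes outside the pathway differed far more between these libraries, with a median of 3.75 over the 11 of 12 that were tested, higher in control replicate 2 in 11 of 11. Their summed level was 531 and 1477 CPM in control, against 92.1 and 75.2 CPM in USP12 cells. Of the 11, 9 had an unadjusted p under 0.05 and a lower estimate in USP12 cells (0 at an adjusted p under 0.05, quasi-likelihood). OAS1, with 349 and 386 CPM in control and 59.4 and 49.0 in USP12 cells, had a log2 fold change of -2.76 and differed by 0.15 on the log2 scale between the control libraries. ISG15 had -4.65, IFI6 -5.09, IFIT1 -4.40, IFIT2 -2.81, MX1 -4.61, OAS2 -7.01, IFI44 -3.53 and IFIH1 -3.30. The estimate for OAS2 (SE 1.93) rests on 37 and 2297 counts in control, against 12 and 2 in USP12 cells. Its count in USP12 replicate 2 was below the floor. Against control replicate 1 alone the direction turned for IFIT2 (0.14), IFI44 (0.33), IFI44L (0.45) and, by the largest amount, IFIT3. Against the same library the estimates were -3.35 for ISG15, -4.32 for IFI6, -1.52 for IFIT1, -0.93 for MX1, -2.44 for OAS2 and -0.95 for IFIH1. Against control replicate 1 alone the median of the 11 was -0.95, and that of the 9 class I genes was -1.01, where against control replicate 2 alone they were -4.48 and -0.98. The part of this interferon difference in the class I values was not tested.

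Upstream regulators gave a mixed picture. IRF1 had a log2 fold change of -0.75, IRF9 -1.05 and STAT2 -0.87, and in these 3 each USP12 library was below each control library. IRF2 had 0.16, and the NF-κB subunits RELA and NFKB1 had -0.10 and 0.05 with overlapping groups. RELA had -0.61 and 0.77 and NFKB1 0.48 and -0.26 against control replicates 1 and 2 alone. Of the interferon-γ receptor and its kinases, IFNGR1 and IFNGR2 had -0.83 and -0.74, JAK1 0.55 and JAK2 0.16. For JAK2 the estimates were 2.38 and -0.66 against control replicates 1 and 2 alone. None of these regulators, receptors and kinases had an unadjusted p under 0.05.

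**Figure D4:**
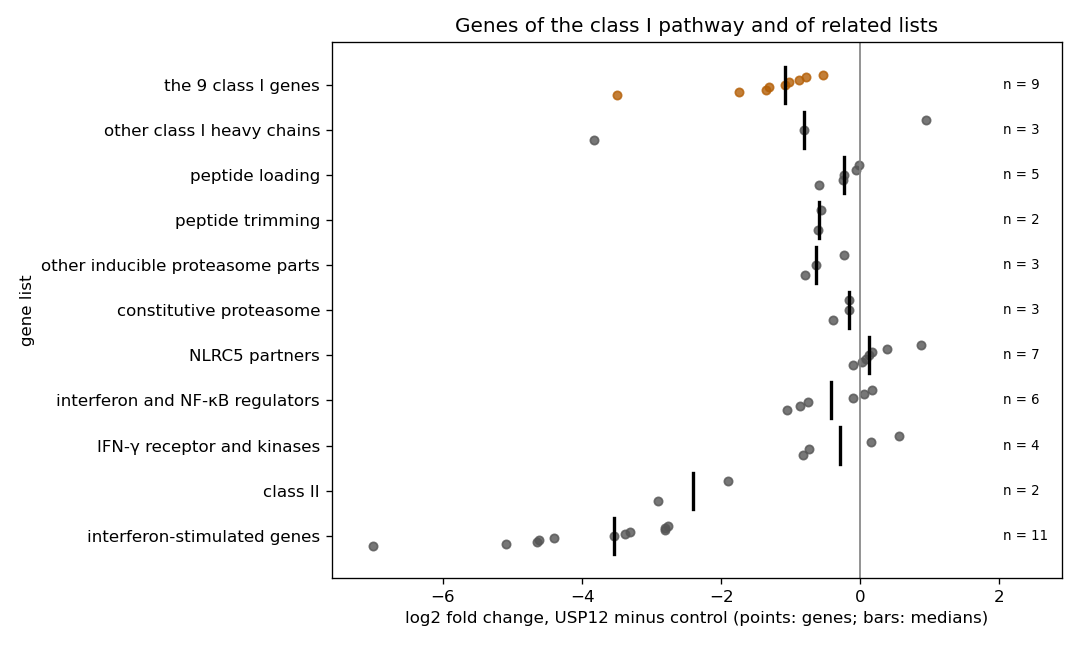
Log2 fold change (points, 1 for each gene) of the 9 class I genes and of related lists, with the median of the points shown (bars) and their number (n). The medians are -1.09 for the 9 genes, -0.24 for peptide loading, -0.16 for the constitutive proteasome, 0.13 for the partners of NLRC5 and -3.53 for the interferon-stimulated genes.

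HLA-DRA, HLA-DPA1, HLA-DPB1, HLA-DQA1 and HLA-DQB1 had 0 counts in every library, which allows a level of up to 0.166 to 0.227 CPM by counting error alone. HLA-DRB1 had 8 counts in control replicate 1 and 0 in every other library. CD74 had 2.35 and 0.554 CPM in control, against 0 counts in USP12 cells. HLA-DMA and HLA-DMB, which encode the class II peptide editor, had counts in all libraries. HLA-DMA had 174 and 43.4 CPM in control, against 16.6 and 12.3 CPM in USP12 cells, a log2 difference of -2.91 (SE 0.72, adjusted p = 0.318, quasi-likelihood). HLA-DMB had 495 and 222 CPM, then 100 and 91.4 CPM, a log2 difference of -1.90 (SE 0.48, adjusted p = 0.323). Against control replicates 1 and 2 alone the estimates were -3.56 and -1.58 for HLA-DMA and -2.34 and -1.21 for HLA-DMB. BRD2, which lies between these genes and HLA-DOA, had a log2 fold change of -0.14.

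Markers of other cells moved with the groups in 1 of 3 lists. The endothelial list summed to 15.4 and 8.59 CPM in control, against 0.432 and 1.32 CPM in USP12 cells, through CDH5 and PECAM1, while VWF had 0 counts in 3 libraries. The leukocyte list summed to 111 and 51.5 CPM in control and 76.8 and 59.6 CPM in USP12 cells, mostly CD68 and CD14, with PTPRC and CD3E at or near 0, and the fibroblast list to at most 1.89 CPM. Of the 5 epithelial A549 markers, 4 were lower in both USP12 libraries than in both control libraries. All 5 together summed to 11770 and 7600 CPM in control and 6652 and 6361 CPM in USP12 cells. KRT19 had 437 and 114 CPM in control, against 68.7 and 55.9 CPM in USP12 cells. Its log2 fold change was -2.14 (adjusted p = 0.438, quasi-likelihood), with -2.78 and -0.87 against control replicates 1 and 2 alone. EPCAM had -1.04, KRT8 -0.84 and KRT18 -0.76, and AKR1B10 had 0.02 with overlapping groups. The part of these markers in the class I values was not tested. In bulk RNA, fewer cells expressing a gene and less RNA per cell cannot be told apart.

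The genes whose profile over the 4 libraries was nearest to the median profile of the 9 were PYGB, SOX9, PCK2, BAIAP2L2 and MID1IP1, at root mean square distances of 0.089, 0.105, 0.106, 0.108 and 0.118 in log2 CPM, among 9506 other genes with a mean of at least 10 CPM. PYGB, a glycogen phosphorylase, had 842 and 952 CPM in control and 373 and 431 CPM in USP12 cells. The likeness is a description over 4 libraries.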

How the data were processed

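The authors deposited raw counts of uniquely mapped fragments for 50868 genes in each of 4 libraries. Per the study's methods and the submitters' processing notes, reads were trimmed and filtered for rRNA with Seqtk, mapped to GRCh38 with Hisat2 2.0.4 and counted with Stringtie 1.3.0. The annotation release and the strand setting are not given in the sources used here. The library kit was stranded and selected mRNA.

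From these counts, edgeR 4.0.16 in R 4.3.3 (filterByExpr, TMM, quasi-likelihood test, Benjamini-Hochberg adjustment over 15222 genes) compared groups taken from the sample titles, without a block. Standard errors are the log2 fold change over the square root of F. Log2 CPM used a prior count of 2. Fold changes are from the fit on counts. Positions and transcript lengths (MANE Select, otherwise the longest transcript) came from GENCODE on GRCh38, matched by identifier, and promoters from RefSeq. The test was tried on simulated data with 200 changed genes. In that simulation the libraries of a group shared the same expected share of counts for each gene, so no control library stood apart.

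The members, lists and tests were chosen with earlier results of these data known. Genes named were the 9 members, USP12, the genes of pathway lists of at most 8 genes, genes of the other lists with an unadjusted p under 0.05, and 5 genes of nearest profile. PSMB8-AS1, BRD2, HLA-DOA, HLA-DOB, IFIT3, IFI44L, the untested class II genes, the markers and the pseudogenes were added with their values known. Each choice was varied in turn, using size factors from DESeq2, testing every gene with a count, requiring 10 counts in all libraries, the DESeq2 1.42.0 Wald test, edgeR's exact test, the replicate number as a block, and leaving out each library. No gene set test was run. Some items are not reported here.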

Additional observations from a re-analysis of the deposited data

How the results depend on the processing

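The direction of the 9 class I genes held in 90 values under 10 alternatives with 1 exception, TAP2, at 0.17 without control replicate 2. Their median, -1.09 in the reported fit, was between -1.31 and -0.98 over the fits that left out a library, and the median moved by more than the spread between replicates only without USP12 replicate 2. The number called lower at an adjusted p under 0.05 was 0 with the quasi-likelihood test, with DESeq2's size factors and with at least 10 counts in every library. It was 2 (HLA-B and HLA-C) without a filter on low counts (1.46% of all genes), with the DESeq2 Wald test (1.79%) and with edgeR's exact test (1.64%). With the replicate number as a block it was also 2, beside 1.65% of all genes. The labels share only replicate numbers, the deviations from the group means correlated by 0.152 across genes for the same number, and the block left 1 residual degree of freedom with infinite prior degrees of freedom. The fit without a filter also had infinite prior degrees of freedom, against 4.15 in the reported fit.

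When a library was left out, between 0 and 6 members were called lower. Without control replicate 1 there were 5, HLA-B, HLA-C, B2M, TAP2 and NLRC5, beside 5.74% of all genes. Without control replicate 2 there were 6, HLA-B, HLA-C, HLA-E, TAP1, PSMB8 and PSMB9, beside 16.3%. In both fits the lone control library is assumed to vary like the USP12 libraries, and only HLA-B and HLA-C were called in both. The study's criterion was met by 5 members at most. In fits on all 4 libraries this was so with DESeq2's size factors (4.58% of all genes) and without a filter (4.73%). It was also so with the DESeq2 Wald test (5.43%) and the exact test (5.14%). With the replicate block it was met by 3, beside 4.71% of all genes. Fewer members met it when either USP12 library was left out, as given above. USP12 had a log2 fold change of 6.32 in the reported fit (adjusted p = 0.0975, quasi-likelihood), and from 5.85 to 7.06 when a library was left out. It passed an adjusted p of 0.05 with 6.33 without a filter, 6.31 with the DESeq2 Wald test, 6.32 with the exact test and 6.43 with the replicate block. HLA-B, NLRC5 and PSMB9, with 70, 73 and 86 counts in their lowest libraries, had the fewest counts of the 9.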

Other observations

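Class I pseudogenes, whose fragments can be confused with those of the functional heavy chains, had few counts. HLA-H had 37 and 26 counts in control replicates 1 and 2 and 16 and 8 counts in USP12 replicates 1 and 2, a log2 difference of -1.30 (standard error 0.81, adjusted p = 0.857, edgeR quasi-likelihood). HLA-J, HLA-K and HLA-L had at most 11 counts in any library, and HLA-V, HLA-W, HLA-P and HLA-T had 0. These genes were looked at after the other values were known.

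The readthrough gene that overlaps TAP2 on its strand had 19 and 0 counts in control, against 15 and 3 in USP12 cells. For TAP2 the counts were 398 and 1190 in control, against 439 and 505 in USP12 cells. HLA-DOB had at most 4 counts.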
